A study of Arabidopsis thaliana with 24 samples.

Results

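The transcript levels of jaz9-1 and Col-0 seedlings that had both received 2e were compared. All 3 libraries of jaz9-1 with 2e and all 3 of Col-0 with 2e were taken by their labels, 6 of the 24 libraries of the series. Col-0 is the wild-type Arabidopsis thaliana accession, and jaz9-1 is a line of the same accession, a single insertion allele with T-DNA in the repressor gene JAZ9. 2e is a stereoisomer of coronatine (2), a bacterial toxin that mimics the active jasmonate hormone. The seedlings of both genotypes were 6 days old, grown in liquid medium with 16 h of light and 8 h of dark, and were treated for 8 h with 1 µM according to the series text. Each library holds whole seedlings, 5 to 8 pooled. The other groups, used where stated, are the same genotypes with mock solution, 2 or a compound labelled 12, each with 3 libraries.

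JAZ proteins repress jasmonate responses until the hormone brings them to the receptor COI1, which leads to their destruction. One branch of the response below them, with ORA59 and other ERF transcription factors, drives antifungal genes such as the PDF1.2 defensins together with ethylene. The other, with MYC2, drives genes of wounding and of defense against insects, VSP2 among them. JAZ9 loss in jaz9-1 removes 1 of the repressors, and the comparison asks which transcripts then stand at another level when both genotypes carry the ligand.

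Col-0 libraries with 2e held 14560697 to 24254398 counts and those of jaz9-1 held 9898016 to 17295316, with organelle genes at 1.32 to 1.66% and 1.61 to 1.86% of counts. Levels are counts scaled to library size (CPM) after TMM scaling. Differences are log2 fold changes of jaz9-1 against Col-0 from the quasi-likelihood F-test of edgeR on all 24 libraries, and adjusted p is the Benjamini-Hochberg false discovery rate (FDR) over 20109 tested genes. A gene is called at an FDR below 0.1. In whole seedlings, fewer cells of a type and less RNA per cell cannot be told apart.

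Under 2e, 673 genes differed between the genotypes, 3.35% of those tested. Of these, 249 were higher in jaz9-1 (1.24%) and 424 were lower (2.11%). These shares are the background for the counts of list members below. The changes were mostly small, with 501 of the 673 within 2-fold, while 30 genes were at least 2.5-fold higher and 65 at least 2.5-fold lower. The median log2 fold change over all tested genes was 0.01. All 3 libraries of jaz9-1 lay above those of Col-0 for 232 of the higher genes, and below them for 409 of the lower genes. Of all tested genes, 9.23% and 9.94% did so. For called genes this follows largely from the call itself, so it adds no separate evidence. Component 1 of a principal component analysis over the 6 libraries held 28.9% of the variance and set the genotypes apart, and component 2 (25.3%) set replicate 1 of jaz9-1 apart from the other libraries. The number of called genes fell to 366 without replicate 1 of Col-0, to 325 without its replicate 3, and to 272 without replicate 3 of jaz9-1.

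JAZ9 was lower in jaz9-1, as the labels imply. Its level was 16.6, 24.1 and 25.02 CPM in the libraries of Col-0 and 5.15, 7.46 and 5.79 CPM in those of jaz9-1. The groups were well apart, with some reads left on the gene in every jaz9-1 library. The log2 fold change was -1.83 (SE 0.19, adjusted p = 2.4e-07, edgeR). Counts are summed over the gene, so parts before and after the insertion are not separated, and reads gathered at the 3′ end, as in the Lasy-Seq method, would check that end alone. The genes on either side did not pass the test, with HWI1 at 0.08 (SE 0.31) and GH9B1, a cell wall hydrolase, at 0.44 (SE 0.16, adjusted p = 0.18).

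Among the JAZ repressors, 3 of 13 tested genes were lower and 0 were higher, with a median of -0.03. The share lower over all tested genes was 2.11%. Beside JAZ9, JAZ6 stood at 94.99, 93.3 and 104.9 CPM in Col-0 and at 62.9, 59.4 and 56.5 CPM in jaz9-1. The groups did not overlap, and the log2 fold change was -0.72 (SE 0.10, adjusted p = 2.1e-05, edgeR). The third was AT3G22275, annotated as a JAZ protein, at 1.32 to 1.59 CPM in Col-0 and 0.51 to 0.68 CPM in jaz9-1. Its call (adjusted p = 0.048) was lost without replicate 1 or 3 of Col-0 or replicate 2 or 3 of jaz9-1, at adjusted p = 0.11 to 0.28. JAZ1, the most studied repressor, stood at 83.1 to 95.6 CPM in Col-0 and 98.8 to 110.5 CPM in jaz9-1, at 0.25 (SE 0.09, adjusted p = 0.21). JAZ2, JAZ3, JAZ4, JAZ7, JAZ10 and JAZ12 lay between -0.14 and 0.21 and did not pass the test. JAZ8 stood at -1.38 (SE 0.56), JAZ11 at -0.46 (SE 0.26) and JAZ5 at 0.47 (SE 0.17), also short of the threshold, and JAZ5 passed it without replicate 2 of jaz9-1 (adjusted p = 0.061).

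The ERF/ORA branch was lower in jaz9-1 in 9 of 13 tested genes and higher in 0, where 2.11% of all tested genes were lower. The median log2 fold change was -1.4, against 0.01 for all genes. In 10 of the 13 genes every jaz9-1 library lay below every Col-0 library, as in 9.94% of all tested genes. The largest differences were in the defensin genes, whose products damage fungal membranes. PDF1.3 stood at 38.3, 30.8 and 69.5 CPM in Col-0 and at 2.14, 1.74 and 2.59 CPM in jaz9-1. Even the lowest Col-0 library was far above the highest of jaz9-1, and the difference was -4.41 (SE 0.37, adjusted p = 3.9e-09, edgeR). PDF1.2 stood at 58.0, 34.7 and 76.7 CPM in Col-0 and at 2.33, 4.25 and 4.44 CPM in jaz9-1, which is -3.90 (SE 0.45) in log2 fold change. PDF1.2b and PDF1.2c stood at -4.79 (SE 0.57) and -5.32 (SE 0.58). The PDF1 genes are near-identical copies, so reads of one may be counted for another.

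**Figure D1:**
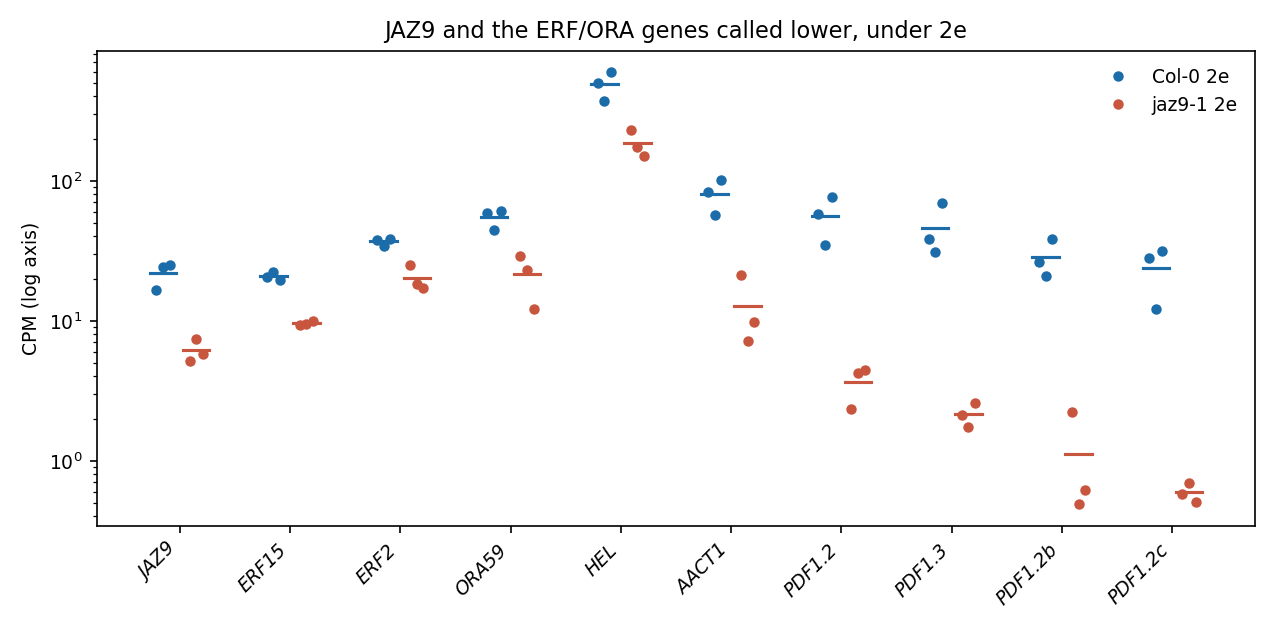
Levels of JAZ9 and the 9 ERF/ORA genes called lower, in CPM on a log axis. Each point is 1 library of Col-0 (blue) or jaz9-1 (red) with 2e, and lines are means of 3 libraries. The 3 jaz9-1 libraries lie below the 3 Col-0 libraries for every gene shown, by the widest margin for the defensin genes.

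Regulators above the defensins were lower as well, by less. ORA59, the transcription factor that binds defensin promoters, stood at 58.4, 44.6 and 61.3 CPM in Col-0 and at 29.1, 23.0 and 12.1 CPM in jaz9-1. It was below Col-0 in each library, at -1.37 (SE 0.27, adjusted p = 0.0026, edgeR). ERF15 and ERF2, factors of the same family, stood at -1.11 (SE 0.18) and -0.88 (SE 0.24, adjusted p = 0.047). ERF1 had few reads, at 1.81 to 2.77 CPM in Col-0 and 0 to 1.67 CPM in jaz9-1, and did not pass the test at -1.74 (SE 0.95, adjusted p = 0.46).

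Of the other defense genes of the branch, AACT1 and HEL were lower and the rest did not pass the test. AACT1, which makes hydroxycinnamic acid amides of agmatine, stood at 82.5, 57.3 and 100.7 CPM in Col-0 and at 21.1, 7.18 and 9.78 CPM in jaz9-1. The groups were apart, at -2.69 (SE 0.32, adjusted p = 2.9e-06, edgeR). HEL, a pathogenesis-related protein of the PR-4 family, stood at 372 to 595 CPM in Col-0 and 151 to 230 CPM in jaz9-1, at -1.4 (SE 0.21). The basic chitinase gene CHI-B overlapped between the groups, at -0.46 (SE 0.25). PDF1.1 and PDF1.4, defensin genes at 0 to 3.49 CPM, stood at 0.58 (SE 1.23) and -0.74 (SE 0.73), and PDF1.1 was the 1 gene of the 13 with a positive value.

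The MYC branch showed no common direction, with 2 of 13 genes higher, 2 lower and a median of 0.09. VSP2 stood at 19.7, 21.9 and 19.5 CPM in Col-0 and at 21.7, 37.2 and 42.7 CPM in jaz9-1, where replicate 1 lay within the range of Col-0. Its log2 fold change was 0.75 (SE 0.20, adjusted p = 0.043, edgeR). VSP1, a related storage protein gene, stood at 0.16 (SE 0.16, adjusted p = 0.77). MYC2, the main transcription factor of the branch, stood at 43.8 to 45.3 CPM in Col-0 and 54.7 to 60.6 CPM in jaz9-1, at 0.39 (SE 0.12, adjusted p = 0.086). The aminotransferase gene TAT3 was lower, at 8.77 to 10.01 CPM in Col-0 and 2.36 to 7.19 CPM in jaz9-1, at -1.15 (SE 0.27, adjusted p = 0.014). CORI3, a cystine lyase, stood at -0.40 (SE 0.11). These 4 calls were not stable to leaving out a library of the comparison. Without one of them MYC2 missed the threshold in 5 of 6 cases (all but replicate 1 of jaz9-1, adjusted p = 0.19 to 0.25) and VSP2 in 4 (all but replicate 2 of Col-0 and replicate 1 of jaz9-1, 0.14 to 0.36). CORI3 missed it without replicate 1 or 2 of Col-0 or replicate 3 of jaz9-1 (0.16 to 0.28), and TAT3 without replicate 3 of jaz9-1 (0.23).

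Few genes that make or break down jasmonate passed the test. Of 13 synthesis genes, AOC4, an allene oxide cyclase, was higher at 0.34 (SE 0.10, adjusted p = 0.063, edgeR), and OPCL1, a CoA ligase of the peroxisomal steps, was lower at -0.53 (SE 0.13, adjusted p = 0.020). The call of AOC4 held only with replicate 1 of jaz9-1 left out (adjusted p = 0.13 to 0.24 without any other library). That of OPCL1 was lost without replicate 1 or 3 of Col-0 or replicate 3 of jaz9-1 (0.11 to 0.19). AOS, the enzyme that commits to the pathway, stood at 182, 217 and 192 CPM in Col-0 and at 207, 257 and 176 CPM in jaz9-1, overlapping, with a log2 fold change of 0.11 (SE 0.11). Of 8 turnover genes and 5 genes of COI1 and its corepressors, 0 passed the test, with medians of 0.05 and 0.07. The turnover values ran from -0.81 (SE 0.32) for JRG21 to 2.24 (SE 0.77, adjusted p = 0.15) for JMT, a methyltransferase of jasmonate. The oxygenase genes AT3G11180, AT5G05600 and AT2G38240, members that RefSeq lists without a name and that are not in this count, stood at 0.35 (SE 1.05), -0.25 (SE 0.11) and -0.80 (SE 0.41) and did not pass either.

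In the ethylene list 1 of 16 genes was higher and 1 lower. EBF1, an F-box protein that removes the ethylene factor EIN3, stood at 0.37 (SE 0.10, adjusted p = 0.042, edgeR), and ACO4, an enzyme that forms ethylene, at -0.35 (SE 0.09, adjusted p = 0.029). EBF1 lost its call without any library but replicate 2 of jaz9-1 (0.10 to 0.21), and ACO4 without replicate 1 or 3 of Col-0 or replicate 2 or 3 of jaz9-1 (0.10 to 0.26). Of 10 salicylate genes 0 passed, with a median of -0.21.

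**Figure D2:**
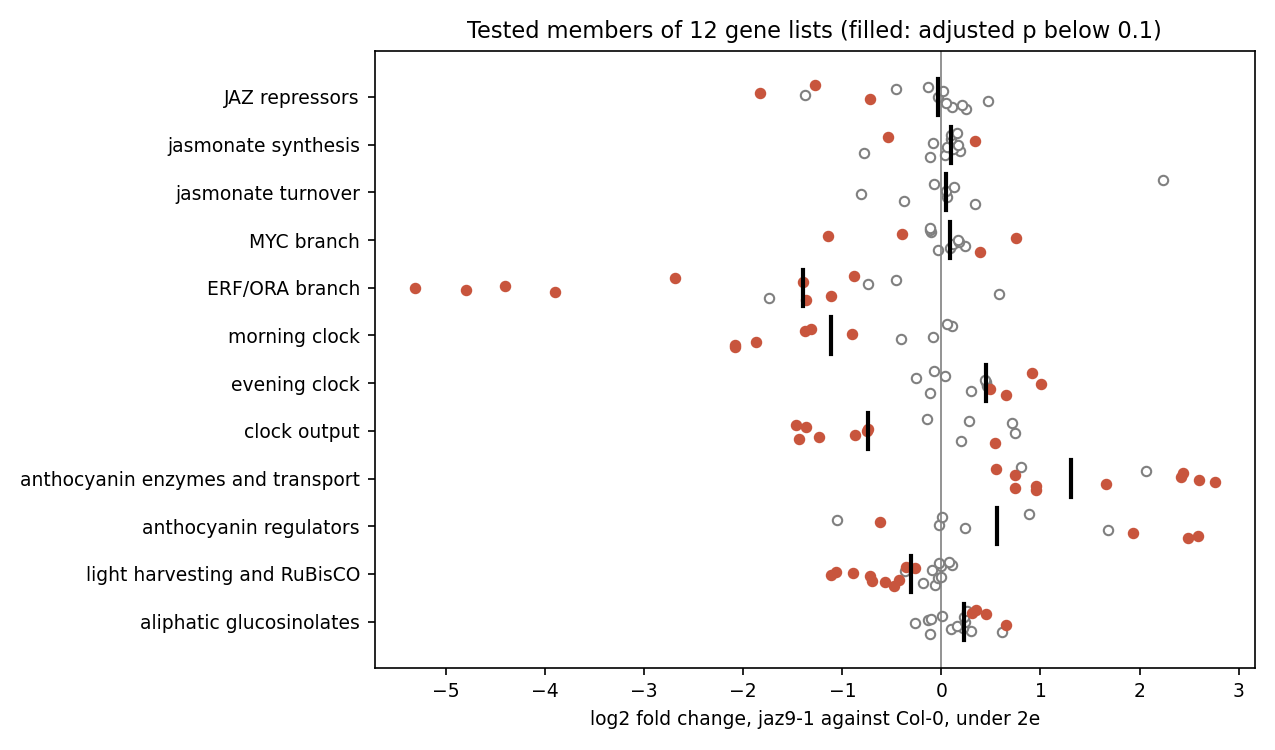
Log2 fold change of jaz9-1 against Col-0 under 2e for the tested members of 12 gene lists. Filled points are genes with an adjusted p below 0.1, open points are the others, and black lines are list medians. The medians of the ERF/ORA branch (-1.4), the morning clock (-1.11) and the anthocyanin enzymes (1.31) lie farthest from 0.

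Clock genes that peak in the morning were lower in jaz9-1, in 6 of 10 tested genes with 0 higher and a median of -1.11. Over all tested genes 2.11% were lower. CCA1 and LHY are the core morning repressors of the clock. CCA1 stood at 22.8, 31.6 and 29.03 CPM in Col-0 and at 5.54, 6.42 and 7.59 CPM in jaz9-1. The groups were clearly apart, at -2.08 (SE 0.29, adjusted p = 2.2e-05, edgeR). LHY stood at 28.5, 49.8 and 43.4 CPM against 10.6, 7.88 and 10.3 CPM, at -2.09 (SE 0.40). RVE8, an activator of evening genes, stood at -1.88 (SE 0.35), and its partners LNK1 and LNK2 at -0.91 (SE 0.22) and -1.38 (SE 0.22). RVE1, which links the clock to auxin, stood at -1.32 (SE 0.33). LNK3 (AT3G12320), of the LNK family but not in the list, stood at 15.7 to 27.3 CPM in Col-0 and 4.08 to 5.51 CPM in jaz9-1, at -2.27 (SE 0.28).

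Evening genes moved the other way, with 4 of 12 higher (1.24% of all tested genes), 0 lower and a median of 0.45. TOC1, the evening repressor of CCA1, stood at 18.0, 24.04 and 26.1 CPM in Col-0 and at 34.1, 35.5 and 37.8 CPM in jaz9-1. It did not overlap, at 0.65 (SE 0.16, adjusted p = 0.017, edgeR). ELF4, a part of the evening complex, was higher by 0.49 (SE 0.11), FKF1, a blue-light receptor, by 0.91 (SE 0.24) and BOA by 1.01 (SE 0.29). TOC1 missed the threshold without replicate 1 of Col-0 or replicate 3 of jaz9-1 (adjusted p = 0.11 to 0.15), and FKF1 without replicate 3 of either genotype (0.24 to 0.25). BOA missed it without any library but replicate 1 of jaz9-1 (0.14 to 0.23). GI stood at -0.12. PRR7, which is counted in the morning list, stood at -0.08, and neither gene was called.

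Of 13 output genes of the clock, 7 were lower and 1 was higher, against 2.11% and 1.24% of all tested genes. CDF1, a repressor of flowering genes, stood at 11.6 to 14.2 CPM in Col-0 and 4.28 to 5.37 CPM in jaz9-1, at -1.44 (SE 0.23, adjusted p = 0.00017, edgeR). COL2 stood at -1.47 (SE 0.27) and PIF5, a growth-promoting factor, at -0.74 (SE 0.15). The RNA-binding protein gene CCR2 was higher by 0.54 (SE 0.10). The hour of harvest of each library is not given in the labels, and its part in these values was not tested.

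Anthocyanin enzymes and transporters were higher in jaz9-1 in 10 of 12 tested genes, with 0 lower and a median of 1.31. Over all tested genes 1.24% were higher. The late enzymes, which act only toward the pigment, differed most. DFR, the reductase at the branch to anthocyanins, stood at 4.74, 17.58 and 7.75 CPM in Col-0 and at 35.2, 57.0 and 115.0 CPM in jaz9-1. The replicates were spread but did not overlap, at 2.76 (SE 0.43, adjusted p = 0.00013, edgeR). LDOX, the next enzyme, stood at 7.97, 14.6 and 10.1 CPM against 36.4, 58.3 and 104.5 CPM, at 2.60 (SE 0.35). TT19, which carries the pigment to the vacuole, was higher by 2.43 (SE 0.31), UGT79B1, a glycosyltransferase, by 2.41 (SE 0.44) and F3'H, a hydroxylase, by 1.66 (SE 0.30). AT4G14090, annotated as an anthocyanidin glucosyltransferase, was a member without a name in RefSeq and so outside this count. It was higher by 2.70 (SE 0.37), which makes 11 of 13 with it. Early enzymes shared with other flavonoids were higher by less, with CHS at 0.95 (SE 0.24), F3H at 0.95 (SE 0.21) and CHI at 0.74 (SE 0.17).

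**Figure D3:**
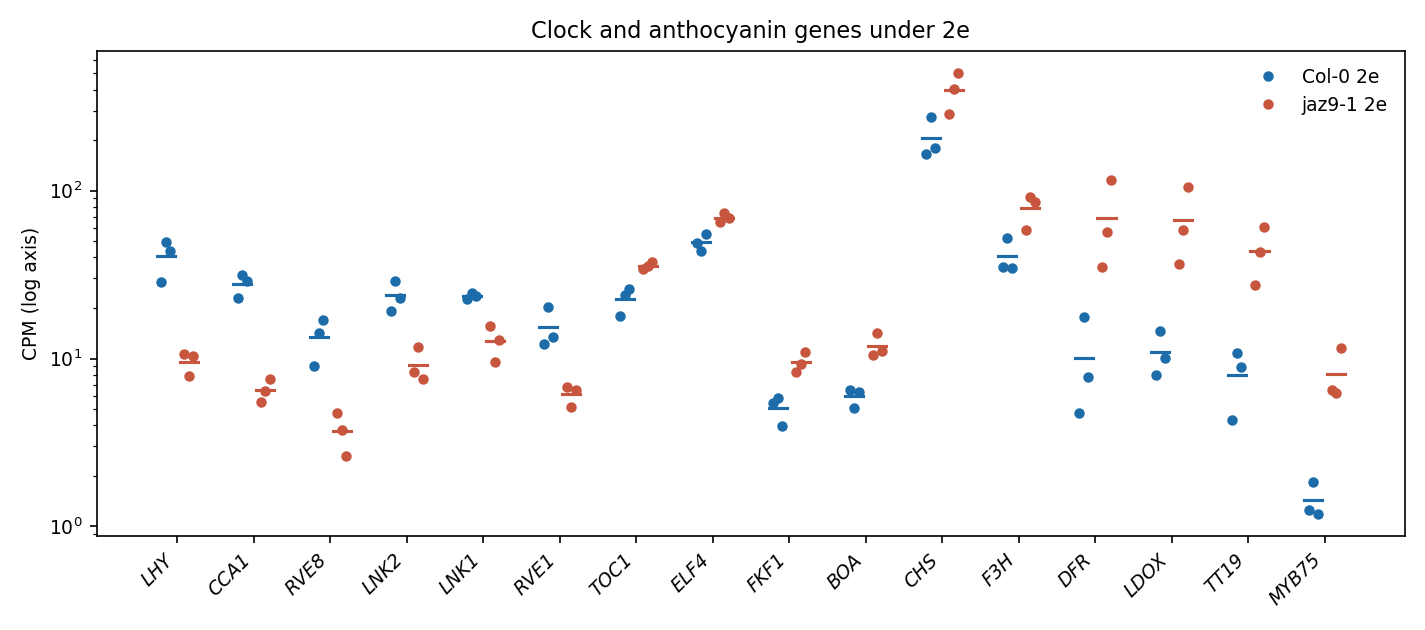
Levels of 10 clock genes and 6 anthocyanin genes under 2e, in CPM on a log axis, with 1 point per library and lines at the means of 3 libraries. The morning genes LHY to RVE1 lie lower in jaz9-1 (red) than in Col-0 (blue), and TOC1 to BOA and the anthocyanin genes lie higher, with no overlap of libraries.

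Of 10 anthocyanin regulators, 3 were higher and 1 was lower. MYB75, the main activator of the pathway, stood at 1.25, 1.85 and 1.19 CPM in Col-0 and at 6.51, 6.21 and 11.6 CPM in jaz9-1. All jaz9-1 libraries were higher, at 2.49 (SE 0.38, adjusted p = 9.6e-05, edgeR). Its relative MYB113 stood at 0 to 0.31 CPM and 0.51 to 1.85 CPM, and its partner TT8 at 0.92 to 1.24 CPM and 1.65 to 5.37 CPM. MYBL2, a repressor of the pathway, stood at 20.3 to 22.7 CPM and 11.6 to 15.6 CPM, at -0.62 (SE 0.18, adjusted p = 0.060). MYB113 lost its call without replicate 2 of Col-0 or replicate 1 of jaz9-1 (adjusted p = 0.10 to 0.18). TT8 lost it without any library but replicate 1 of jaz9-1 (0.13 to 0.28), and MYBL2 without any but replicate 2 of jaz9-1 (0.12 to 0.22).

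Nuclear genes of light harvesting were lower in jaz9-1, in 10 of 20 tested genes of a list that also holds RuBisCO small subunits. In this list 0 were higher and the median was -0.31, and over all tested genes 2.11% were lower. LHCB2.1 encodes a chlorophyll-binding protein of the photosystem II antenna. It stood at 1222, 1396 and 1097 CPM in Col-0 and at 690, 538 and 490 CPM in jaz9-1. The groups were apart, at -1.11 (SE 0.14, adjusted p = 4.5e-06, edgeR). LHCB2.2 stood at -0.89 (SE 0.13), LHCB2.3 at -1.07 (SE 0.18), LHCB1.5 at -0.72 (SE 0.11) and LHCA4, of photosystem I, at -0.57 (SE 0.09). The 4 RuBisCO genes RBCS1A, RBCS1B, RBCS2B and RBCS3B lay between -0.03 and 0.11. The LHCB genes are copies of each other, so their counts may not be separate.

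Markers of other tissues were compared beside these values. The summed level of the green-tissue list was 62732 to 70715 CPM in Col-0 and 56599 to 61134 CPM in jaz9-1. Of 16 root hair and 16 root endodermis and suberin genes 0 passed the test, with medians of -0.17 and 0.25. Their sums were 588 to 730 CPM and 133 to 162 CPM in Col-0, and 433 to 709 CPM and 157 to 181 CPM in jaz9-1. Of 5 seed storage genes 0 passed, and their sum stayed at or under 2.23 CPM in every library. The part of tissue makeup in the light-harvesting values was not tested.

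Aliphatic glucosinolate genes were higher in 4 of 17 (1.24% of all tested genes), with 0 lower and a median of 0.22. CYP79F1, which starts synthesis from chain-elongated methionine, stood at 130, 127 and 127 CPM in Col-0 and at 196, 225 and 184 CPM in jaz9-1. The libraries did not overlap, at 0.66 (SE 0.10, adjusted p = 9.0e-05, edgeR). IPMI2, of the chain elongation, was higher by 0.45 (SE 0.10), IMD1 by 0.31 (SE 0.08) and GSTU20 by 0.35 (SE 0.10). IMD1 lost its call without replicate 1 or 3 of Col-0 or replicate 2 of jaz9-1 (adjusted p = 0.11 to 0.19), and GSTU20 without any Col-0 library or replicate 2 of jaz9-1 (0.10 to 0.34). Of 16 indolic glucosinolate genes 1 was lower, the glutathione transferase gene GSTF10 at -0.65 (SE 0.09). Of 16 genes of myrosinases and ER bodies 1 was higher, JAL22, a lectin, at 0.74 (SE 0.20), with replicate 3 of jaz9-1 at 189 CPM and the others at 77.9 and 98.8. Its call was lost without that library (0.62) and without replicate 1 or 3 of Col-0 (0.14 at the lowest). Of 16 sulfur genes 0 passed.

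Of 15 iron genes 2 were higher and 2 lower. With 4 more members that RefSeq lists without a name the count was 2 higher and 5 lower of 19. Of these, AT1G47400, AT1G47395 and AT2G30766 were lower at -1.32 (SE 0.23), -1.5 (SE 0.25) and -1.59 (SE 0.35), calls kept with any library of the comparison left out. They and the unnamed members of other lists were singled out after their values were seen. The ferritin genes FER3 and FER1, whose products store iron, were higher by 0.39 (SE 0.10, adjusted p = 0.019, edgeR) and 0.47 (SE 0.13, adjusted p = 0.052). bHLH38, a regulator of iron uptake, stood at 4.28 to 5.11 CPM in Col-0 and 1.17 to 1.33 CPM in jaz9-1, at -1.95 (SE 0.56, adjusted p = 0.058). BTS, a ubiquitin ligase of the iron response, stood at -0.55 (SE 0.16, adjusted p = 0.076). FER3 lost its call without replicate 3 of jaz9-1 (0.29), FER1 without replicate 1 or 3 of Col-0 or replicate 2 or 3 of jaz9-1 (0.11 to 0.40). bHLH38 lost it without any of the 6 libraries (0.11 to 0.23), and BTS without replicate 1 or 3 of either genotype (0.14 to 0.39). IRT1, the root iron transporter, overlapped between the groups at 0.64 to 1.98 CPM and 1.69 to 8.94 CPM.

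Of 12 phosphate genes 2 were lower, the acid phosphatase gene PAP17 at -1.12 (SE 0.26, adjusted p = 0.013, edgeR) and SPX1, a phosphate sensor, at -0.94 (SE 0.21), which missed the threshold without replicate 2 of Col-0 (0.11). Of 11 nitrate genes 1 was higher, UPM1, an enzyme of siroheme synthesis, at 0.59 (SE 0.09). In the list of sugar and dark response, SWEET12, a sucrose transporter, stood at 20.2, 20.9 and 19.6 CPM in Col-0 and at 39.2, 42.6 and 36.8 CPM in jaz9-1. The levels were close within each group, at 0.96 (SE 0.17). DIN11, an oxygenase gene, was lower at -1.17 (SE 0.21), and the other genes of the 15 did not pass.

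Cold and defense genes show calls that rest on a single library. COR15A, a chloroplast protein of freezing tolerance, stood at 1.84, 181.7 and 3.52 CPM in Col-0 and at 0.68, 1.53 and 1.18 CPM in jaz9-1. Only replicate 2 of Col-0 was high. Its value of -5.74 (SE 1.11, adjusted p = 0.0023, edgeR) became -1.23 (adjusted p = 0.55) without that library. KIN1 and KIN2, related cold-induced genes, stood at -2.65 and -0.95, and without the same library at -0.15 (adjusted p = 0.97) and -0.57 (0.22). KIN1 was also lost without replicate 1 or 2 of jaz9-1, and these were the 3 lower genes of 9 in the cold list. CYP71A12, an enzyme of indole defense compounds and 1 of 15 in the camalexin list, stood at 20.9 CPM in replicate 1 of Col-0 and at 0.49 to 1.5 CPM in the other 5 libraries. Its value of -3.23 became -0.51 (adjusted p = 0.89) without replicate 1 of Col-0, and the call was also lost without replicate 2 or 3 of jaz9-1 (0.14 to 0.15).

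Most calls in the growth lists were in the auxin list. Of 17 auxin genes 3 were lower, where 2.11% of all tested genes were, with a median of -0.77, and 15 had a negative value. For 8 of the 17, every jaz9-1 library lay below every Col-0 library, as for 9.94% of all tested genes. SAUR20, a small auxin-induced growth protein, stood at 8.43, 8.59 and 5.29 CPM in Col-0 and at 2.53, 2.3 and 2.02 CPM in jaz9-1, at -1.71 (SE 0.45, adjusted p = 0.034, edgeR). SAUR21 stood at -1.56 (SE 0.42) and IAA2, an auxin repressor, at -0.38 (SE 0.11, adjusted p = 0.082). SAUR20 lost its call without replicate 1 or 2 of Col-0 or replicate 3 of jaz9-1 (0.11 to 0.19), SAUR21 without replicate 2 of Col-0 or 2 or 3 of jaz9-1 (0.12 to 0.24), and IAA2 without any of the 6 (0.11 to 0.36). The SAUR genes are neighbouring copies, so their counts may not be separate. Of 22 expansin and XTH cell wall genes 1 was lower, EXPA1 at -0.46 (SE 0.13, adjusted p = 0.066), a call that held only with replicate 1 of Col-0 left out (0.12 to 0.21 without any other). EXLA2, XTH19 and XTH23 stood at -0.16, -0.33 and -0.26 and overlapped between the groups. Of 15 G2/M cell cycle genes 0 passed.

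Of the remaining lists, 0 of 9 abscisic acid genes, 0 of 12 heat shock genes and 0 of 7 tryptophan synthesis genes passed. In the hypoxia list of 11, PDC2, a fermentation enzyme, was lower at -0.54 (SE 0.15, adjusted p = 0.048, edgeR), lost without replicate 1 or 3 of Col-0 or 2 or 3 of jaz9-1 (0.17 to 0.28). AT3G10020, an unnamed member beyond the 11, was higher by 0.65 (SE 0.17), lost without any library but replicate 1 of jaz9-1 (up to 0.38). Among 7 reference genes, ACT2, an actin, was higher by 0.28 (SE 0.08, adjusted p = 0.055) and UBQ10, a polyubiquitin, lower at -0.25 (SE 0.07, adjusted p = 0.069). Without a library of the comparison, ACT2 lost its call in 4 of 6 cases (replicates 1 and 3 of Col-0, 2 and 3 of jaz9-1, 0.16 to 0.28) and UBQ10 in 6 (0.11 to 0.23). The elongation factor gene AT5G60390, an unnamed member beyond the 7, was higher by 0.28 (SE 0.07), lost without replicate 2 or 3 of Col-0 or 1 or 3 of jaz9-1 (up to 0.29).

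Several of the largest differences lay outside these lists. MLS and ICL, the enzymes of the glyoxylate cycle that turns stored fat into sugar in seedlings, were higher. MLS stood at 3.03, 6.34 and 3.04 CPM in Col-0 and at 37.5, 39.7 and 58.6 CPM in jaz9-1. The margin was wide in every library, at 3.43 (SE 0.42, adjusted p = 3.8e-06, edgeR). ICL stood at 19.8, 41.7 and 20.2 CPM against 128, 123 and 263 CPM, at 2.65 (SE 0.44). Both were also higher in jaz9-1 under mock, MLS at 2.00 (adjusted p = 0.0075, edgeR) and ICL at 2.23 (0.0052). AT2G47780, annotated as a rubber elongation factor protein, was higher by 3.66 (SE 0.53). The acyltransferase gene AT1G03495 was higher by 2.73 (SE 0.48). The inhibitor gene AT5G46960 and the cysteine proteinase gene AT4G36880 stood at 2.66 (SE 0.62) and 2.64 (SE 0.52), and without replicate 3 of jaz9-1 they stood at 1.95 (adjusted p = 0.23) and 1.79 (0.10).

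Among the lower genes, MRD1, named for its fall in the mto1 mutant, had the lowest p under 2e. It stood at 51.1, 39.7 and 46.7 CPM in Col-0 and at 0.78, 3.0 and 1.01 CPM in jaz9-1, nearly without transcript there, at -4.81 (SE 0.33, adjusted p = 2.4e-11, edgeR). PLA2A, a lipid acyl hydrolase induced by pathogens, stood at 23.3, 15.8 and 35.1 CPM against 3.69, 3.42 and 2.64 CPM, at -2.94 (SE 0.36). BBX16, a B-box protein, stood at -2.57 (SE 0.43) and WRKY45, a transcription factor, at -2.15 (SE 0.36).

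The called genes were spread over the genome. The lower ones made 1.73 to 2.33% of tested genes on the 5 chromosomes, with 123 of 5277 on chromosome 1, which carries JAZ9. Those at least 2.5-fold lower numbered 19, 12, 15, 3 (of 3065 tested) and 16 on chromosomes 1 to 5. Of 83 tested chloroplast genes 5 were higher, where 1.24% of all tested genes were. Runs of 3 or more neighbouring tested genes called in 1 direction were 2 in number. AT1G52200, AT1G52220 and PSAH2, the latter 2 chloroplast membrane proteins, stood at -0.75 (SE 0.20), -0.35 (SE 0.08) and -0.32 (SE 0.08). The second run holds AT5G15948, AT5G15950, KIN1 and KIN2, of which the first 2 had the same counts in each library because reads were counted for both. AT1G52200 lost its call without replicate 1 or 3 of Col-0 or 2 or 3 of jaz9-1, and AT1G52220 and PSAH2 without replicate 3 of either genotype (adjusted p = 0.13 to 0.24, edgeR).

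Of the called genes, 5 had 0 counts in all 3 jaz9-1 libraries, all on chromosome 1 and all rare in Col-0. AT1G59950, an oxidoreductase gene, had 8, 14 and 48 counts in Col-0, at least 15.8-fold higher than a floor of 3 counts over the jaz9-1 group. GLIP3, a lipase gene, had 20, 16 and 6 counts, at least 9.46-fold higher. AT1G48325, AT1G63055 and AT1G63057 had 36 to 49 counts in all. AT1G63055 (5, 7 and 24 counts) and AT1G63057 (5, 10 and 34) have close locus numbers, so their counts may not be separate. These 5 and AT2G22760, with 0 counts in Col-0, were chosen after their values were seen. AT2G22760 had 13, 0 and 3 counts in jaz9-1, so its call rests mainly on replicate 1.

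The same genotype comparison was made under the other treatments, which share no library with it. In mock-treated seedlings 509 genes differed (2.53%), 1.19% of the tested genes higher and 1.34% lower. Under 2 there were 1665 (8.28%), 4.8% higher and 3.48% lower, and under 12 there were 687 (3.42%), 1.86% higher and 1.56% lower. Of the 249 genes higher under 2e, 87 were also higher under mock (34.9% of these and 36.2% of the mock list), 90 under 2 (36.1% and 9.32%) and 89 under 12 (35.7% and 23.8%). Of the 424 lower genes, 137 were lower under mock (32.3% and 50.9%), 118 under 2 (27.8% and 16.9%) and 164 under 12 (38.7% and 52.4%). In the opposite direction were 0 genes under mock, 23 under 2 and 1 under 12. Of all 673, 74 were called in the same direction in every treatment and 257 under 2e alone, a count of thresholds that does not test a difference.

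**Figure D4:**
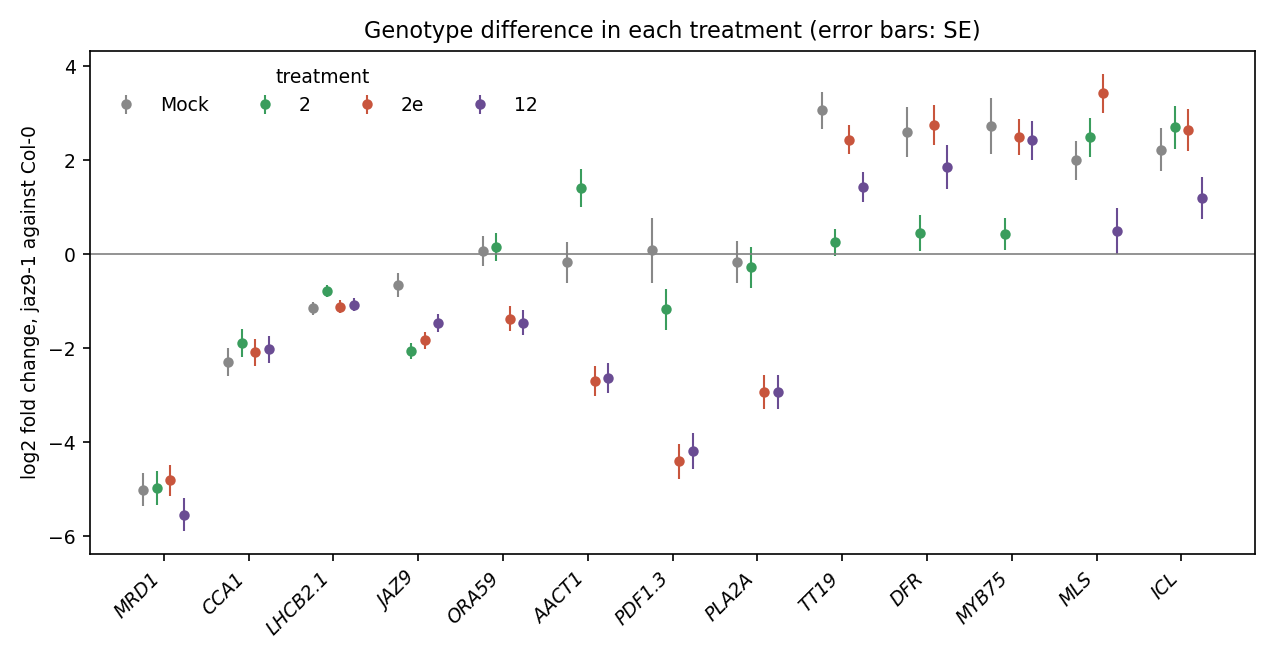
Log2 fold change of jaz9-1 against Col-0 for 13 genes under mock, 2, 2e and 12, with 1 point per treatment and bars of 1 SE. MRD1, CCA1 and LHCB2.1 lie below 0 in each treatment, ORA59, AACT1, PDF1.3 and PLA2A lie well below 0 under 2e and 12, and TT19, DFR and MYB75 lie above 0 under mock, 2e and 12 and near 0 under 2.

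Genes differed in how their genotype difference ran over the treatments. MRD1 stood at -5.01, -4.98 and -5.54 under mock, 2 and 12, and CCA1 at -2.3, -1.89 and -2.03, values near those under 2e. PDF1.3 stood at 0.08 under mock, -1.17 under 2 and -4.19 under 12. AACT1 stood at -0.17, 1.4 and -2.64, and ORA59 at 0.06, 0.15 and -1.45. In Col-0 under 2 these genes were low, PDF1.3 at 3.33 to 4.59, AACT1 at 1.5 to 3.06 and ORA59 at 7.55 to 15.8 CPM. Of the 13 ERF/ORA genes, 2 were lower under mock, 4 under 2 (with 1 higher) and 9 under 12. Of the 12 anthocyanin enzymes, 5 were higher under mock, 0 under 2 and 4 under 12, and of the 10 morning clock genes 5, 6 and 5 were lower.

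The genotype difference under 2e was tested against that under mock. At an FDR of 0.1 edgeR called 0 genes, with 871 at an unadjusted p below 0.05 (4.33% of those tested), and the lowest adjusted p was 0.104. DESeq2 without independent filtering called 2 above and 8 below, and edgeR with no count filter 22 above and 56 below. For PDF1.3 the difference was -4.49 (SE 0.84, adjusted p = 0.10), for ORA59 -1.43 (SE 0.42, adjusted p = 0.74) and for AACT1 -2.52 (SE 0.54, adjusted p = 0.15). Against 12, a test added after the data were seen, edgeR also called 0 genes, with 965 at an unadjusted p below 0.05 (4.8%) and a lowest adjusted p of 0.23. Against 2, in a test added likewise, the difference lay above for 97 genes (0.482%) and below for 221 (1.1%), of which 101 were among the 673.

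The 921 genes that 2 raised at least 2.5-fold in Col-0 (4.58% of those tested), a set that uses none of the 6 libraries, were followed under 2e. Of these, 54 were higher in jaz9-1 (5.86%, against 1.24% of all tested genes) and 39 were lower (4.23%, against 2.11%), with a median of 0.06. The set had calls in both directions. More were higher than lower, but without replicate 1 of Col-0 the counts were 24 higher and 32 lower, without its replicate 3 they were 27 and 30, and without replicate 3 of jaz9-1 they were 26 and 21. Of the 561 genes that 2 lowered at least 2.5-fold, 13 were higher (2.32%) and 37 lower (6.6%), with a median of -0.13.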

How the data were processed

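RNA of 24 libraries, 3 for each of 8 groups, was sequenced by Lasy-Seq per the paper, while the labels also name a TruSeq kit. The authors trimmed reads with Trimmomatic, aligned them to TAIR10 with HISAT2 and deposited counts per gene from featureCounts. A second deposited table holds normalized values and was not used, and 8 of its value columns have no name. The reference was TAIR10.1, so it served for names only, the planned promoter search was not run (26719 of 27416 gene IDs matched), and 475 of 496 members of 35 gene lists matched by name. Counts of list members are over those matched, and called members without a match are given by locus.

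Counts were tested in R 4.3.3 with edgeR 4.0.16 (filterByExpr, TMM, 1 coefficient per group over 24 libraries, quasi-likelihood F-test, Benjamini-Hochberg over 20109 genes, FDR 0.1 and 2.5-fold as thresholds). SE is the absolute log2 fold change over the square root of F. Alternatives used DESeq2 1.42.0, RLE scaling, no filter, the compared libraries alone, a replicate block, no organelle genes, an FDR of 0.05 and each library left out. After the data were seen, thinning to 9898016 counts, the 6 libraries with a block, and tests against 2 and 12 were added. On simulated data for this comparison, among 19885 genes, 67.7% of 2-fold and 86% of 4-fold changes were recovered, and 10.5% of calls were false. The simulated counts were drawn from the fitted model and held no outlying libraries. These rates therefore do not cover calls that rest on a single library.

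The members and lists were chosen with earlier results of these data known. Genes named are JAZ9 and its neighbours, genes the study names, all JAZ genes, the called members of each list with the smallest p (at most 4), 12 per direction with the largest called change (mean of at least 1 log2 CPM, libraries not overlapping), the lowest 10 for the difference from mock (none passed), and runs of 3 called neighbours. Other members of these lists are given as values. The p-values rest on the spread between libraries of pooled seedlings within groups, estimated over all 24 libraries and not from the compared groups alone. With the compared libraries alone edgeR called 836 genes, 604 of them shared with the 673. Among the named genes, AT3G22275, JAL22 and KIN1 lost their calls there (adjusted p = 0.35, 0.15 and 0.12, edgeR). The labels do not say whether the 3 libraries of a group came from separate sowings.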

Additional observations from a re-analysis of the deposited data

Results flagged for a closer look

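For 27 of the 104 named genes, the genotype difference under 2e was not the same as that under 2 at the same dose and time, by an edgeR contrast that was added after the data were seen. Values are the log2 fold change of jaz9-1 against Col-0 under 2e minus that under 2, and all passed an FDR of 0.1 over all tested genes. No alternative was run and no library left out for this contrast, so its dependence on single libraries was not tested. Some genes were uneven in jaz9-1 under 2, such as HEL at 89.8, 237.6 and 228.4 CPM. Over all tested genes, 97 lay above (0.482%) and 221 below (1.1%). Many of the named genes were chosen because they were called under 2e. That choice favours a difference here, so 27 of 104 cannot be set against these shares.

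The ERF/ORA genes AACT1 (-4.10), PDF1.2b (-3.94), PDF1.2c (-3.40), PDF1.3 (-3.24), PDF1.2 (-2.70), ORA59 (-1.52) and HEL (-1.25) lay below, so that jaz9-1 was lower against Col-0 under 2e than it was under 2. AACT1 had opposite signs, at -2.69 under 2e and 1.4 under 2. Under 2 it was low in both genotypes, at 1.5 to 3.06 CPM in Col-0 and 4.94 to 9.72 CPM in jaz9-1. ORA59 and PDF1.3 in Col-0 were also lower under 2 than under 2e, at 7.55 to 15.8 and 3.33 to 4.59 CPM. PDF1.2 in Col-0 overlapped between 2 (26.7 to 59.9 CPM) and 2e. The anthocyanin genes MYB113 (2.95), LDOX (2.44), DFR (2.3), TT19 (2.18) and MYB75 (2.06) lay above, and their repressor MYBL2 (-1.22) lay below. DFR and LDOX in Col-0 stood higher under 2 than under 2e, at 77.1 to 126 and 96.0 to 123 CPM. Such differences include shifts of the Col-0 level between 2 and 2e. The genes PLA2A (-2.66), WRKY45 (-2.62), DIN11 (-1.40), EXPA1 (-1.09), PDC2 (-1.02), ACO4 (-0.66) and UBQ10 (-0.51) lay below as well, and AT4G36880 (2.90), AT1G03495 (2.34), AT4G14090 (2.15), CYP79F1 (0.52) and IMD1 (0.50) lay above. COR15A (-7.17) and KIN1 (-3.95) also lay below, both with single libraries at a high level. For COR15A these were replicate 2 of Col-0 under 2e (181.7 CPM) and replicate 2 of jaz9-1 under 2 (91.2 CPM), and for KIN1 the same libraries (32.95 and 112.2 CPM).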

How the results depend on the processing

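None of the 85 other named genes that were called changed sign under any alternative. Of the 18 not called, AOS, HWI1, JAZ4, JAZ7, JAZ10 and VSP1 did, without a call. JAZ9 kept its call under all alternatives (log2 fold change -2.00 to -1.73 with a library left out). Of 1531 values of these genes under alternatives, 1384 kept their side of the threshold, 146 fell below it and 1 rose above it, and 130 of the 146 came from leaving out a library. With a library left out, the counts ran from 95 to 263 for genes higher, 177 to 403 for genes lower, 20 to 36 and 37 to 102 for those at least 2.5-fold higher and lower, and 24 to 67 and 21 to 38 for genes raised by 2 that were higher and lower. For a genotype difference above and below that under mock they ran from 0 to 2 and 0 to 7. The counts above and below mock were 2 and 8 by DESeq2 without independent filtering, 1 and 7 with it, 22 and 56 with no count filter, and 1 and 5 without organelle genes. The count below mock was 2 in the compared libraries alone and 1 with the replicate block. With no count filter 450 genes were higher, 679 lower and 99 at least 2.5-fold lower, and 99 and 68 genes raised by 2 were higher and lower. DESeq2 with independent filtering gave 19 and 41 genes at least 2.5-fold higher and lower, and an FDR of 0.05 gave 153 higher. The cause was not tested. Of the 673 genes, 661 were called in the same direction with RLE, 653 by DESeq2 without independent filtering, and 578 after thinning to equal depth.

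Same-numbered libraries of the genotypes had correlations of their deviations of 0.04, -0.01 and -0.01, which cannot show whether they shared a sowing or a batch. A replicate block gave 702 called genes in the fit of 24 libraries, against 673 without it. In the 6 libraries alone it gave 900, against 836 without it, an alternative chosen after seeing the data, as was thinning. Depth limits genes near 1 CPM.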

Other observations

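Several genes of light signalling were lower in jaz9-1 under 2e, some of them under mock as well. Of 14 tested B-box and light regulators, chosen after their values were seen, 12 were lower and 0 higher, with a median log2 fold change of -0.83. Over all tested genes 2.11% were lower, but the choice of these genes favours a larger share. BBX28, a B-box protein, stood at 31.0, 33.1 and 28.0 CPM in Col-0 and at 12.2, 12.8 and 12.4 CPM in jaz9-1, at -1.29 (SE 0.20, adjusted p = 0.00013, edgeR). GLK2, an activator of chloroplast genes, stood at 96.9, 93.7 and 78.9 CPM against 64.7, 46.0 and 43.6 CPM, at -0.81 (SE 0.13). HYH and HY5, bZIP factors that promote light responses, stood at -0.84 (SE 0.17) and -0.68 (SE 0.19), and PIF7 at -1.63 (SE 0.40). Under mock, BBX28 stood at -1.15 (adjusted p = 0.0014, edgeR), GLK2 at -0.78 (0.00044) and HYH at -0.62 (0.072). HY5 at -0.16 and PIF7 at -0.76 did not pass the test under mock.

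In another group chosen after the values were seen, fatty acid breakdown, the glyoxylate cycle and gluconeogenesis, 7 of 17 tested genes were higher and 0 lower. Over all tested genes 1.24% were higher. Beside MLS and ICL, KAT5, a thiolase, stood at 25.4, 27.2 and 23.3 CPM in Col-0 and at 34.5, 41.9 and 47.4 CPM in jaz9-1, at 0.71 (SE 0.17, adjusted p = 0.020, edgeR). PCK1, which starts gluconeogenesis, stood at 0.48 (SE 0.14) and MFP2 at 0.46 (SE 0.12), while SDP1, the lipase of oil bodies, stood at -0.17 (SE 0.19). A group of 19 tested proteasome subunits was also chosen after the values were seen, by annotated product. Products named as regulatory, assembly, inhibitor, maturation or activator proteins were left out, so the group is not the whole proteasome. In it 6 genes were lower, where 2.11% of all tested genes were. The log2 fold changes of all 19 were negative, with a median of -0.24 against 0.01 for all tested genes. Of 5 genes of ribosomal protein L41, chosen likewise and near-identical copies whose reads may not be separate, 4 were lower.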
